A study of Mus musculus with 8 samples.

Results

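The transcripts described here are those of 10 mouse genes of neuronal migration: the reelin group (Reln, Vldlr, Lrp8 and Dab1), the CXCL12 group (Cxcl12, Cxcr4 and Ackr3) and the microtubule group (Dcx, Dclk1 and Pafah1b1). The members were chosen by name, and all 10 were found among the 32543 genes of the deposited table. RNA of cells sorted by their GFP from the amygdala of E16.5 mouse embryos was sequenced. These cells are labelled as intercalated cells, clusters of small GABAergic neurons around the basolateral amygdala. Knockout libraries came from Tshz1GFP/RA embryos and control libraries from Tshz1GFP/+ embryos, with 4 libraries per genotype. The series' design text speaks of triplicate profiles, whereas the labels hold these 8 libraries, and all were used.

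Both genotypes carry a GFP allele of Tshz1, so the control cells have 1 altered copy of the gene as well. GFP was the gate of the sort, and any cell in which the Tshz1 locus drives GFP could pass it. The mice were kept on an outbred background, and each library is a pool of tissue from embryos of the same genotype. The labels do not give the number of embryos in a pool or their sex, and they do not say whether pools came from separate litters. P-values therefore measure the spread between these pools, which may be partly technical. Each title begins with NX, NY, QT or RM, a prefix that a knockout and a control library share and whose meaning the labels do not give.

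Reelin is a large secreted glycoprotein that binds the lipoprotein receptors VLDLR and LRP8 (also named ApoER2) on migrating neurons. Binding leads to phosphorylation of the adaptor DAB1 inside the cell, and loss of this pathway in mice disturbs the layering and positioning of neurons. CXCL12 is a chemokine made by meninges and other cells along migration routes. CXCR4 is its signalling receptor, and ACKR3 (formerly CXCR7) binds and removes the ligand and adjusts CXCR4 signalling in migrating interneurons. Doublecortin (DCX) and its relative DCLK1 stabilise microtubules in young neurons, and PAFAH1B1 (LIS1) regulates the dynein motor that moves the nucleus forward. Human mutations of DCX or PAFAH1B1 cause lissencephaly.

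Library totals ran from 6384571 to 13295690 expected counts in the knockout and from 5785612 to 14535867 in the control. At these depths 3 counts, taken as the floor of detection, stood for 0.186 to 0.545 normalised CPM (counts scaled to a common library size). Tshz1 stood at 55.9 to 121 CPM in the knockout and at 240.0 to 492 CPM in the control, in the direction of the labels in every library. In the main direction of variation across all genes the NX libraries (-54.8 knockout, -94.2 control) stood opposite the RM libraries (61.0 knockout, 46.4 control). That component held 33.7% of the variance.

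Set side by side per transcript length, the members spread widely. Dcx was the most abundant, with 816 ± 334 TPM (transcripts scaled by length and library size) in the knockout and 741 ± 225 TPM in the control (SD, n = 4 each). In each library it ranked between place 39 and place 109 among all genes. Dclk1 (156 ± 60.3 TPM in the knockout, 169 ± 36.5 TPM in the control), Lrp8 (138 ± 46.9 and 134 ± 30.3 TPM, knockout before control) and Pafah1b1 (128 ± 49.3 and 104 ± 33.5 TPM) formed the next tier. Vldlr, Ackr3, Cxcr4, Dab1 and Reln followed with means over the 8 libraries between 40.0 and 12.6 TPM. Cxcl12, the ligand, was the lowest, with 3.60 ± 1.84 TPM in the knockout and 2.06 ± 1.44 TPM in the control.

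The order was set by these same 8 libraries, so it is given as a description with no test. Dcx stood above Dclk1, Pafah1b1 above Vldlr and Reln above Cxcl12 in 8 of 8 libraries, and the mean TPM differed 4.78-fold, 2.89-fold and 4.47-fold at these steps. Dclk1 stood above Lrp8, Lrp8 above Pafah1b1 and Ackr3 above Cxcr4 in 7 of 8 libraries each. The order changed between libraries at the other 3 steps, with Vldlr above Ackr3 in 6, Dab1 above Reln in 5 and Cxcr4 above Dab1 in 4 of 8, so these neighbours did not separate beyond their spread. The lipoprotein receptor Lrp8 was thus more abundant than Vldlr in every library, at 1.85 to 5.28 times its TPM.

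**Figure D1:**
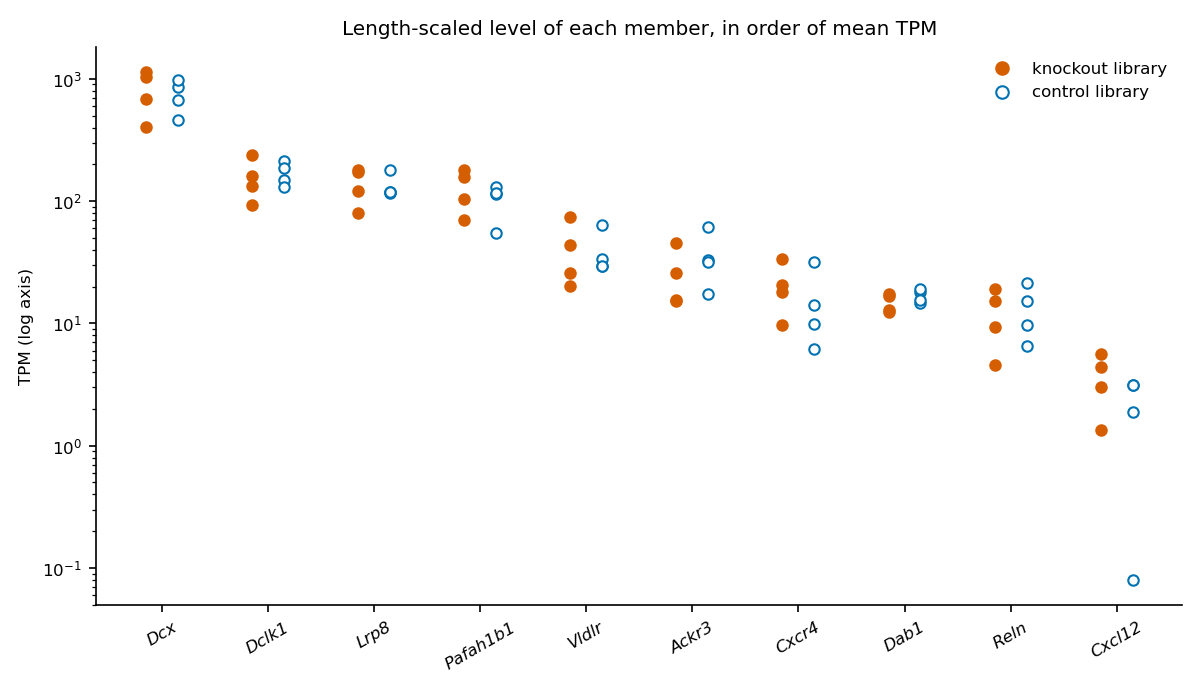
TPM of each member on a log axis, ordered by the mean over the 8 libraries; filled points are knockout libraries and open points control libraries. Dcx lies between 403 and 1131 TPM and Cxcl12 between 0.08 and 5.61 TPM, and the points of the genotypes overlap for every member.

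Knockout and control did not differ past the test for any member. All 10 passed the filter on low counts, and edgeR called 0 at an adjusted p under 0.05 (quasi-likelihood F), where 5 of 14157 tested genes were called (0.0353%). At an unadjusted p under 0.05 there were also 0 members, against 3.62% of all tested genes, and DESeq2 and limma-voom also called 0 members, where they called 39 and 2 of all genes. The adjusted p was 1.00 for each member in edgeR with Benjamini-Hochberg adjustment over all tested genes. The genotypes overlapped in CPM for all 10, whereas 2.58% of tested genes had no overlap. Of the 10 members, 6 were fitted higher and 4 lower in the knockout, with a median log2 fold change of 0.04 against -0.01 over all tested genes. Cxcr4 and Dcx were higher in the knockout in all 4 prefixes and Dab1 lower in all 4, where 8.33% and 8.49% of tested genes did so. In sorted bulk RNA, fewer cells of a type and less RNA per cell cannot be told apart.

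**Figure D2:**
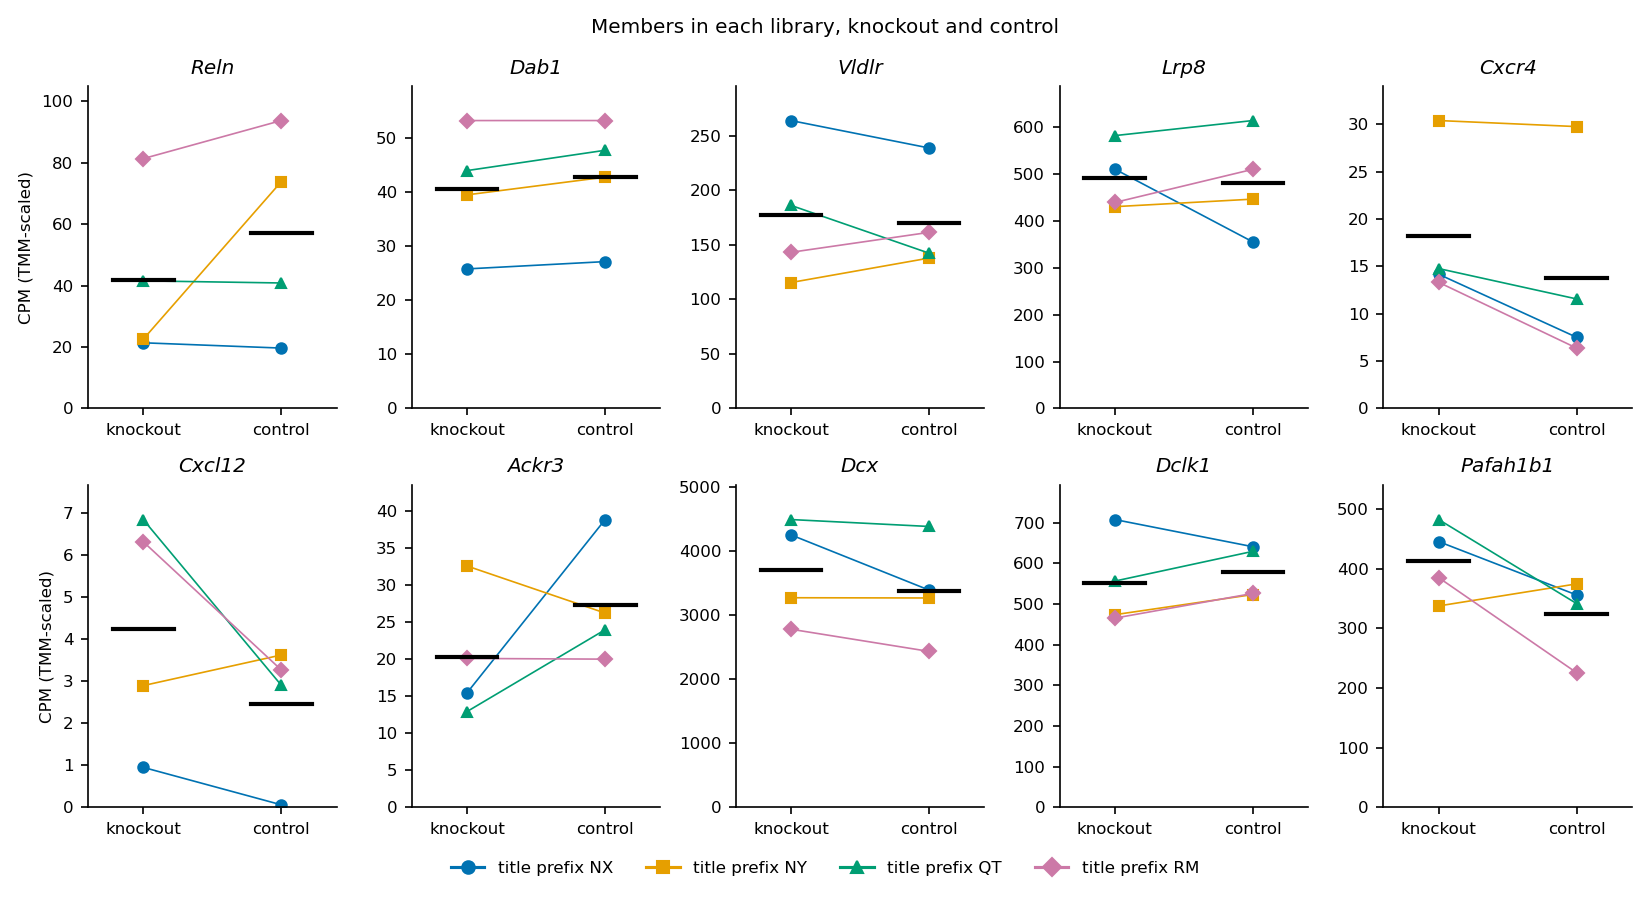
CPM of each member in the 4 knockout and 4 control libraries, with lines joining libraries of the same title prefix and black bars at the group means; each panel has its own axis from 0. Libraries of a prefix lie near each other in several panels, as for RM (81.4 CPM knockout, 93.8 CPM control) and NX (21.4 and 19.7 CPM) in Reln. The NY libraries of Reln lie apart (22.5 and 73.9 CPM). No panel separates the genotypes.

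**Figure D3:**
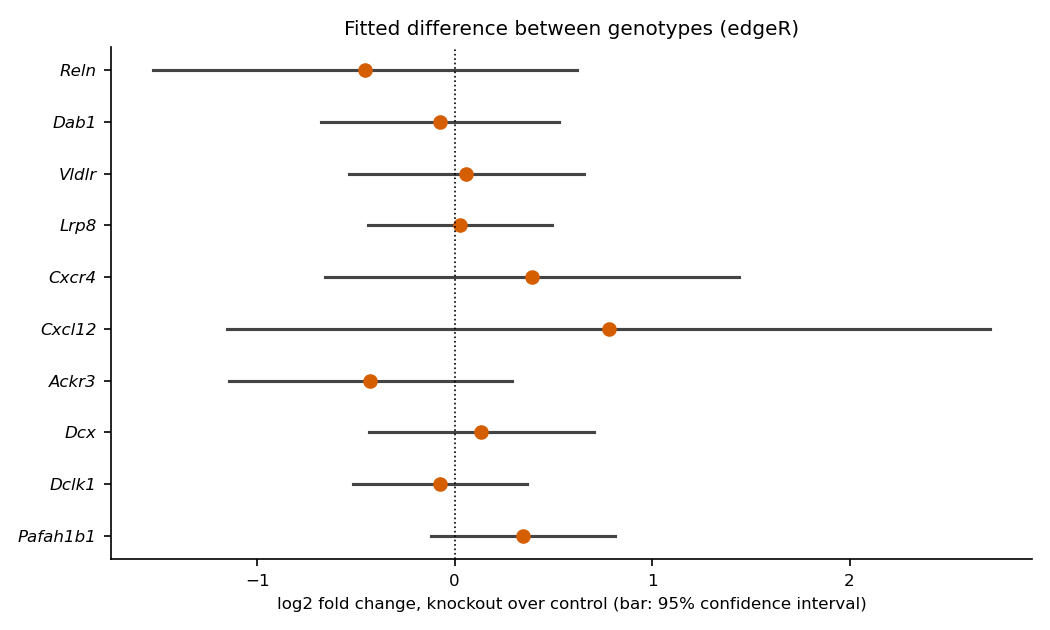
Log2 fold change of each member, knockout over control, from edgeR, with 95% confidence intervals. Every interval crosses 0; the narrowest intervals belong to Dclk1, Pafah1b1 and Lrp8 and the widest to Cxcl12.

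Reln, the ligand of the reelin group, had 21.4 (NX), 22.5 (NY), 41.6 (QT) and 81.4 CPM (RM) in the knockout, against 19.7 (NX), 73.9 (NY), 40.9 (QT) and 93.8 CPM (RM) in the control. Knockout and control were close in 3 prefixes and differed in NY, where the knockout was 1.71 lower on the log2 scale. The means were 41.7 ± 28.0 CPM in the knockout and 57.0 ± 33.1 CPM in the control (SD, n = 4 each). The log2 fold change was -0.45 (SE 0.49), with a 95% interval from 0.347-fold to 1.54-fold. The exact two-sided permutation p over the 70 orders of the libraries was 0.600. The log2 fold change was -0.25 without the knockout NY library, -0.09 without both NY libraries and -0.99 without the knockout RM library. Prefix means of Reln differed 4.27-fold, from 20.5 CPM (NX) to 87.6 CPM (RM).

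Vldlr, a receptor that binds reelin, had 116 to 264 CPM in the knockout and 138 to 239 CPM in the control. Both NX libraries were the highest of their genotype (264 CPM knockout, 239 CPM control), and the log2 fold change was 0.06 (SE 0.27; 95% interval 0.689-fold to 1.57-fold). Lrp8, the other reelin receptor, had 430.5 to 582 CPM in the knockout and 355 to 614 CPM in the control. Its log2 fold change was 0.03 (SE 0.22), and the interval from 0.737-fold to 1.41-fold was among the narrowest of the members. Lrp8 was higher in the knockout in NX alone (511 CPM knockout, 355 CPM control) and lower in the other 3 prefixes. The sign of the fitted change of both receptors turned in some alternatives.

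Dab1, the adaptor that reelin receptors bind, was the steadiest member within prefixes. It had 25.8 (NX), 39.5 (NY), 44.0 (QT) and 53.2 CPM (RM) in the knockout, against 27.2 (NX), 42.8 (NY), 47.7 (QT) and 53.2 CPM (RM) in the control. Both genotypes rank the prefixes alike, and the largest difference within a prefix was -0.12 on the log2 scale. The fitted log2 fold change was -0.07 (SE 0.28), and the 95% interval ran from 0.626-fold to 1.44-fold.

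Cxcr4, the signalling receptor of CXCL12, had 14.2 (NX), 30.4 (NY), 14.8 (QT) and 13.3 CPM (RM) in the knockout, against 7.50 (NX), 29.8 (NY), 11.6 (QT) and 6.36 CPM (RM) in the control. Both NY libraries stood far above the rest. Within each prefix the knockout library was the higher one, by 0.03 (NY) to 1.04 (RM) on the log2 scale, which 8.33% of tested genes share. Over all 8 libraries the genotypes overlapped. The means were 18.2 ± 8.18 CPM in the knockout and 13.8 ± 10.9 CPM in the control (SD, n = 4 each). The log2 fold change was 0.39 (SE 0.48; 95% interval 0.635-fold to 2.71-fold), and the exact permutation p was 0.314. Which NY library was kept decided the size: the log2 fold change was 1.10 without the control one, 0.03 without the knockout one and 0.73 without both. The first of these had an unadjusted p of 0.0235 in edgeR and an adjusted p of 0.999. Over the 21 alternatives the value ran from 0.03 to 1.10, and the smallest adjusted p of edgeR and the other tools was 0.706.

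Ackr3, the receptor that takes up CXCL12, had 15.5 (NX), 32.5 (NY), 12.9 (QT) and 20.1 CPM (RM) in the knockout, against 38.8 (NX), 26.2 (NY), 24.0 (QT) and 20.0 CPM (RM) in the control. It was lower in the knockout in NX and QT, higher in NY and about level in RM. The means were 20.3 ± 8.71 CPM in the knockout and 27.2 ± 8.13 CPM in the control. The log2 fold change was -0.43 (SE 0.33; 95% interval 0.453-fold to 1.22-fold), with an exact permutation p of 0.257. Without the knockout NY library it was -0.76 (unadjusted p = 0.0380 in edgeR), and without both NX libraries it was -0.09.

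Cxcl12, the chemokine itself, had the fewest counts of the members. It had 14, 35, 45 and 38 expected counts in the knockout NX, NY, QT and RM libraries, against 1, 49, 38 and 18 in the control libraries of the same order. In CPM these were 0.953, 2.90, 6.85 and 6.32 in the knockout, against 0.0620, 3.63, 2.91 and 3.27 in the control. Both NX libraries were the lowest of their genotype, and the control NX library lay under the floor of 3 counts, while the other 7 lay above it. The log2 fold change was 0.78 (SE 0.89), and the 95% interval from 0.451-fold to 6.55-fold was the widest of the members. Without the control NX library the value was 0.36.

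Markers of cells that could carry Cxcl12 or Reln RNA were set beside these values. Of 14 vascular and meningeal markers, 3 passed the low-count filter, Lum was at 0 in all libraries, and their summed level was 3.40 to 15.1 CPM in the knockout and 1.49 to 58.8 CPM in the control. Per library it was 3.40 (NX), 7.12 (NY), 8.52 (QT) and 15.1 CPM (RM) in the knockout, against 1.49 (NX), 58.8 (NY), 6.89 (QT) and 22.5 CPM (RM) in the control. Both measures were lowest in the NX libraries of each genotype. Within the control both were highest in NY, and within the knockout QT and RM stood highest in both. Across genotypes, the highest Cxcl12 values (knockout QT and RM) did not fall in the libraries with the highest sums (control NY and RM). Of 10 markers of Cajal-Retzius cells, the reelin-rich neurons of the cortical surface, 5 passed the filter. Trp73 reached at most 1.91 CPM (NX) in the knockout and 2.37 CPM (NY) in the control, and Lhx5 at most 0.155 CPM in the knockout and 0.268 CPM in the control. Ebf3 reached at most 4.63 CPM in the knockout and 5.40 CPM in the control, Nhlh2 5.58 and 7.35 CPM, and Ndnf 2.496 and 3.27 CPM, knockout before control. The summed list, most of which was Tbr1 and Cacna2d2, stood at 89.6 to 221 CPM in the knockout and 52.5 to 134 CPM in the control. The whole sum was higher in the knockout in 3 of 4 prefixes. The sum without Tbr1, taken after the values were seen, was higher in 1 of 4. That was NX, at 48.4 CPM in the knockout and 44.1 CPM in the control. Of 15 interneuron markers 14 were tested, 7 were fitted higher and 7 lower, and edgeR called 0, with 2 lower at an unadjusted p under 0.05. Their sum was 533 (NX), 555 (NY), 643 (QT) and 708 CPM (RM) in the knockout, against 494 (NX), 606 (NY), 897 (QT) and 716 CPM (RM) in the control. It was highest in RM in the knockout and in QT in the control, while Reln was highest in RM in both. Of 12 microglial markers, which bear on Cxcr4 because microglia can carry it, 11 passed the filter. All 11 were fitted lower in the knockout, where 7158 of 14157 tested genes were. EdgeR called 0 of them, and 1 (9.09%) was lower at an unadjusted p under 0.05, against 3.62% of all tested genes in either direction. The sums of the 12 markers were 13.8 (NX), 67.8 (NY), 36.4 (QT) and 56.4 CPM (RM) in the knockout, against 8.49 (NX), 106 (NY), 65.8 (QT) and 161 CPM (RM) in the control. The part of these cells in the levels of Reln, Cxcr4 and Cxcl12 was not tested.

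Dcx, the microtubule protein that marks young migrating neurons, had 4259 (NX), 3277 (NY), 4499 (QT) and 2785 CPM (RM) in the knockout, against 3396 (NX), 3273 (NY), 4390.4 (QT) and 2438 CPM (RM) in the control. The knockout value was the higher one in every prefix, by 0.002 (NY) to 0.33 (NX) on the log2 scale. The means were 3705 ± 810 CPM in the knockout and 3374 ± 800 CPM in the control, and prefix means differed 1.70-fold. EdgeR fitted a log2 fold change of 0.13 (SE 0.26; 95% interval 0.739-fold to 1.63-fold), with an exact permutation p of 0.571. Without 1 library the value ran from 0.0085 (without control RM) to 0.29 (without control QT).

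Dclk1, the doublecortin-like kinase, had 465 to 707 CPM in the knockout and 523 to 641 CPM in the control. Its log2 fold change was -0.07 (SE 0.20), and its interval from 0.699-fold to 1.29-fold was the narrowest. Pafah1b1, which encodes LIS1, had the smallest p of the 10 and did not pass. It had 445 (NX), 338 (NY), 482 (QT) and 385 CPM (RM) in the knockout, against 356 (NX), 375 (NY), 341 (QT) and 226 CPM (RM) in the control. It was higher in the knockout in 3 of 4 prefixes and lower in NY. The means were 413 ± 64.1 CPM in the knockout and 324 ± 67.3 CPM in the control (SD, n = 4 each). This is a log2 fold change of 0.35 (SE 0.21; 95% interval 0.921-fold to 1.75-fold), with an unadjusted p of 0.131 in edgeR and an exact permutation p of 0.143. Without the control RM library, the lowest of all 8, the log2 fold change was 0.21. With limma on log2(TPM + 1) it was 0.28 (unadjusted p = 0.482 in limma).

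Members that act as partners or relatives were also compared within each library, as ratios of TPM; these 3 ratios were chosen after the values were seen. Cxcr4 over Ackr3 was 0.795 (NX), 0.727 (NY), 1.19 (QT) and 0.620 (RM) in the knockout, against 0.161 (NX), 0.949 (NY), 0.445 (QT) and 0.358 (RM) in the control. The ratio was higher in the knockout in NX, QT and RM and lower in NY. The mean log2 ratio was -0.31 ± 0.40 in the knockout and -1.34 ± 1.05 in the control, a difference of 1.03 with an exact two-sided permutation p of 0.114 (0.343 adjusted over the 3 ratios). Dcx over Dclk1 was 4.78 (NX), 5.17 (NY), 6.44 (QT) and 4.30 (RM) in the knockout, against 4.06 (NX), 4.49 (NY), 5.24 (QT) and 3.55 (RM) in the control. Each knockout library stood above the control library of its prefix, and the genotypes ranked the prefixes alike. This ratio had a mean log2 value of 2.35 ± 0.25 in the knockout and 2.10 ± 0.24 in the control (SD, n = 4 each, exact permutation p = 0.229, 0.343 adjusted). Lrp8 over Vldlr had a mean log2 ratio of 1.87 ± 0.42 in the knockout and 1.83 ± 0.65 in the control (exact permutation p = 1.00). The genotypes overlapped for each ratio.

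**Figure D4:**
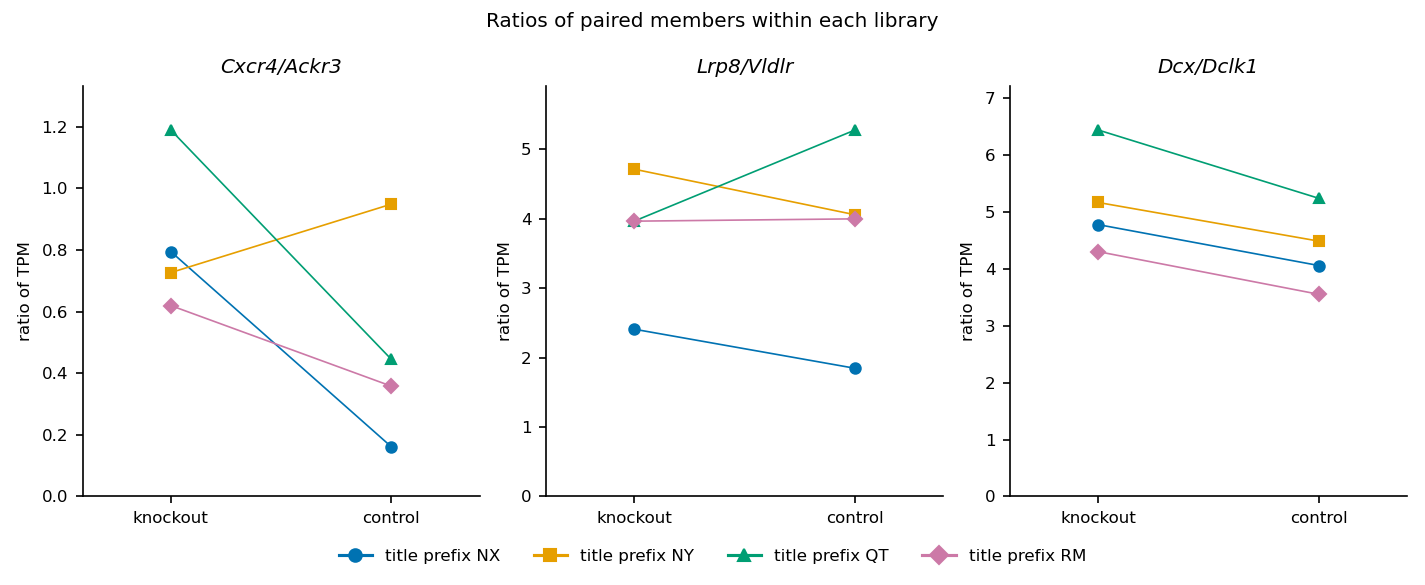
Ratio of TPM of Cxcr4 to Ackr3, Lrp8 to Vldlr and Dcx to Dclk1 in each knockout and control library, with lines joining libraries of the same title prefix; each axis starts at 0. The Cxcr4 to Ackr3 ratio lies between 0.620 and 1.19 in the knockout and between 0.161 and 0.949 in the control, with NY going against the other prefixes.

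Besides counts, the sample files give for each gene a mean transcript length, weighted by the isoform levels that RSEM estimated in that library. Reln, with 10 transcript models, had the widest spread among the members, from 4372 to 9061 bases. In the knockout it was 5347 (NX), 9061 (NY), 4372 (QT) and 6290 bases (RM), against 6627 (NX), 8566 (NY), 8279 (QT) and 6684 bases (RM) in the control. The genotypes overlapped (exact permutation p = 0.343, 0.886 adjusted over the 10 members). The length enters TPM: in QT, Reln was nearly level in CPM (41.6 knockout, 40.9 control) and 19.1 against 9.69 in TPM, with the knockout first. On the log2(TPM + 1) scale the fold change of Reln was -0.16 in place of -0.45. Dcx was shortest in the RM libraries of both genotypes, at 8027 bases in the knockout and 8009 bases in the control, against 8405 to 8688 and 8637 to 8795 bases in the other knockout and control libraries. Vldlr varied by less than 3 bases over all libraries. Over the 10 members the smallest exact permutation p for length was 0.143.

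**Figure D5:**
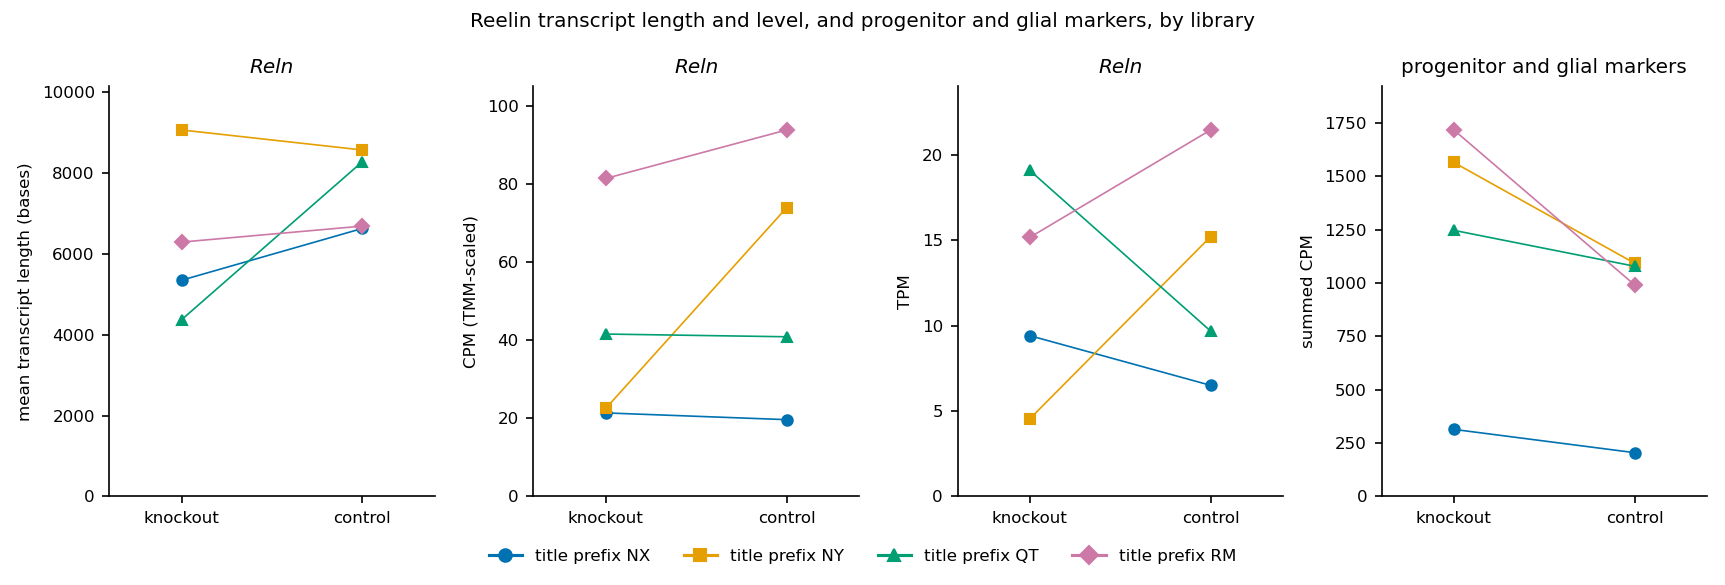
For each knockout and control library, the RSEM mean transcript length of Reln in bases, its CPM, its TPM, and the summed CPM of 15 progenitor and glial markers, with lines joining libraries of the same title prefix and axes from 0. The QT libraries are level in CPM and apart in length and TPM, and the NX libraries are lowest in the marker sum.

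Progenitor and glial markers, which bear on how mature the sorted cells were, summed to 314 (NX), 1565 (NY), 1247 (QT) and 1717 CPM (RM) in the knockout, against 205 (NX), 1093 (NY), 1079 (QT) and 991 CPM (RM) in the control. The knockout sum was the higher one in 4 of 4 prefixes, and the genotypes overlapped. The markers did not move together, as genes named after their values were seen show. The cell cycle genes Mki67 (mean 376 CPM knockout, 194 CPM control) and Top2a (215 and 97.0 CPM) had the largest differences in mean CPM. By contrast, Nes (31.0 and 43.9 CPM) and Slc1a3 (26.7 and 35.0 CPM) were lower in the knockout. On the log2 scale the fitted change was larger for Ccnb1 (1.26) and Aqp4 (-1.49, at 0.663 and 1.90 CPM) than for Top2a (1.14) and Mki67 (0.96). Of these 15 markers 14 were tested, with 7 fitted higher and 7 lower in the knockout. EdgeR called 0 of them, and 1, Ccnb1, was higher at an unadjusted p under 0.05. The NX libraries, lowest in these markers, were also the lowest in Reln, Dab1 and Cxcl12 and the highest in Vldlr and Dclk1 within each genotype. Markers of pallial glutamatergic neurons, another migrating population near the amygdala, summed to 846 to 1628 CPM in the knockout and 619.6 to 1185 CPM in the control. Of 12 such markers, all tested, 7 were fitted higher and 5 lower in the knockout, and edgeR called 0, with 0 at an unadjusted p under 0.05. Most of the sum was Bcl11b, which striatal-type GABAergic neurons also express. The whole sum was higher in the knockout in 4 of 4 prefixes and the sum without Bcl11b, taken after the values were seen, in 3 of 4, with NY at 333 CPM in the knockout and 411 CPM in the control. The part of these differences in the members' levels was not tested. All 15 intercalated cell markers passed the filter. All 12 pallial markers and 14 of 15 progenitor and glial markers passed too, so passing does not identify the labelled cell type. The intercalated markers summed to 3229 to 4046 CPM in the knockout and 3447 to 5747 CPM in the control. Most of the sum was Gad2 (mean 1262 CPM knockout, 1372 CPM control) and Meis2 (1236 and 1458 CPM), named after the values were seen. The sum was lower in the knockout in each of the 4 prefixes. In that list 13 were fitted lower in the knockout, 1, Tshz1, was called, and 4 (26.7%) were lower at an unadjusted p under 0.05, against 3.62% of all tested genes in either direction. Those 4 were Tshz1, Erbb4, Drd1 and Slc32a1, named here after their values were seen. Tshz1 is the gene that the knockout alters, so its call and its part in the lower sum were fixed by the genotype. In NY the list summed to 3229 CPM in the knockout and 3447 CPM in the control, with Tshz1 at 61.6 and 240.0 CPM. The part of this list in the members' levels was not tested.

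Genes that act with the members were described from lists drawn up by pathway. Of 34 genes of the reelin pathway 33 were tested, 14 were fitted higher and 19 lower in the knockout, and 0 were called in edgeR (3.03% at an unadjusted p under 0.05, against 3.62% of all genes). The median log2 fold change was -0.02. Mylip, an E3 ligase that sends lipoprotein receptors such as VLDLR and LRP8 to degradation, had the smallest p, at 12.04 ± 4.50 CPM in the knockout and 6.11 ± 2.64 CPM in the control (log2 fold change 0.97, SE 0.43, unadjusted p = 0.0426 in edgeR). It was higher in the knockout in 4 of 4 prefixes, and the genotypes overlapped. The kinase Akt1 (41.5 ± 12.03 CPM knockout, 55.5 ± 9.52 CPM control), the integrin Itga3 (4.26 ± 1.81 and 7.43 ± 3.73 CPM) and the cofilin kinase Limk1 (15.4 ± 5.995 and 21.4 ± 5.40 CPM, knockout before control) did not pass.

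In the CXCL12 pathway list 23 of 30 genes in the table were tested, 12 were fitted higher and 11 lower, and 0 were called (4.35% at an unadjusted p under 0.05; median log2 fold change 0.02). Gnai3, an inhibitory G protein subunit of the kind that CXCR4 couples to, had 210.0 (NX), 162 (NY), 199 (QT) and 154 CPM (RM) in the knockout, against 142 (NX), 133 (NY), 151 (QT) and 78.5 CPM (RM) in the control. The genotypes did not overlap, which 2.58% of tested genes share. Its log2 fold change was 0.52 (SE 0.23), with an unadjusted p of 0.0407 and an adjusted p of 1.00 in edgeR. Hmgb1, which forms a complex with CXCL12, had 196 ± 28.0 CPM in the knockout and 148 ± 24.2 CPM in the control, and Gnai1 and the endosomal sorting protein Stam were the other genes with the smallest p. None of these passed.

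In the doublecortin and LIS1 list 44 of 45 genes were tested, 19 were fitted higher and 25 lower, and 0 were called (2.27% at an unadjusted p under 0.05; median log2 fold change -0.04). Dynll1, a dynein light chain, had 214 ± 29.4 CPM in the knockout and 153 ± 38.9 CPM in the control (log2 fold change 0.48, SE 0.22, unadjusted p = 0.0457 in edgeR). Dynlt3, another dynein light chain, had 13.3 ± 3.95 CPM in the knockout and 20.9 ± 7.62 CPM in the control. Actr1a, a dynactin subunit, had 173 ± 38.9 CPM in the knockout and 217 ± 29.6 CPM in the control. Nudcd1 had 20.0 ± 2.61 CPM in the knockout and 14.4 ± 4.80 CPM in the control. Over the 3 lists together, edgeR called 0 of 100 tested genes and 3 had an unadjusted p under 0.05, and DESeq2 gave the same counts.

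For each member, the gene with the most similar profile over the 8 libraries was taken from tested genes whose mean log2 CPM reached 3. Pearson's r of log2 CPM was 0.984 between Dcx and Mapre1, a microtubule plus-end protein. It was 0.977 between Pafah1b1 and Naa30, 0.966 between Dclk1 and Pik3r3, 0.955 between Reln and Gsap, and 0.953 between Lrp8 and Usp9x. The others were Notch2 for Dab1 (0.972), AK087850 for Vldlr (0.977), 1700021F05Rik for Cxcr4 (0.937), Timm8b for Ackr3 (0.961) and Tead2 for Cxcl12 (0.990). With at least 9359 candidates for each member and 8 points that share prefix and depth, these values describe the libraries only. Among the members, r was highest between Reln and Dab1 (0.842) and lowest between Dab1 and Vldlr (-0.75), and the NX libraries stand at the ends of both relations.

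In GRCm38, the assembly that mm10 names, all members are protein-coding. Reln is a minus-strand gene of chromosome 5 (21884454 to 22344702), Vldlr on the plus strand of chromosome 19 (27216484 to 27254231), and Dab1 (103619359 to 104744844) and Lrp8 (107802261 to 107876840) on the plus strand of chromosome 4. Cxcr4 is a minus-strand gene of chromosome 1 (128588199 to 128592293), Ackr3 on the plus strand of the same chromosome (90203980 to 90216751) and Cxcl12 on the plus strand of chromosome 6 (117168535 to 117181367). Dcx is a minus-strand gene of the X chromosome (143855842 to 143933311), Dclk1 on the plus strand of chromosome 3 (55242364 to 55539068) and Pafah1b1, again on the minus strand, on chromosome 11 (74673949 to 74724670). Exons of Gm10475 overlap those of Reln, and exons of Gm21954 and Gm42609 overlap those of Dclk1, each on the other strand, and counts without strand cannot separate them. Expected counts of Lrp8 and Dcx were fractional in all 8 libraries, which RSEM gives where fragments are shared with other places, while those of Dab1, Vldlr, Cxcr4, Cxcl12 and Dclk1 were whole in all 8.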

How the data were processed

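The NuGEN Ovation kit that made the cDNA does not mark strand, and Nextera XT libraries followed, per the labels' protocols. Trimmomatic 0.33, Bowtie2, RSEM 1.2.22 and the build mm10 are named per the submitters' processing notes. No source used here names the annotation release or the version of Bowtie2. The deposited files hold, per the file headers, RSEM expected counts, TPM and FPKM per gene; FPKM was not used. The deposited matrices equalled the sample files in 16 columns (largest difference 0). The length column of the matrices is that of 1 library, so lengths were read from the sample files.

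Expected counts were rounded and tested with edgeR 4.0.16 (R 4.3.3): filterByExpr, TMM factors, quasi-likelihood test of knockout over control with genotype alone, Benjamini-Hochberg adjustment over 14157 genes, calls at 0.05. Standard errors come from the quasi-likelihood F, and intervals are 95%. CPM is scaled by TMM; log2 CPM has a prior count of 2. Exact permutation tests (SciPy 1.17.1) are two-sided over 70 orders, so p cannot fall below 0.0286. Library totals were 5785612 to 14535867, and without molecular identifiers floors cover counting error only. DESeq2 1.42.0 and limma 3.58.1 served as alternatives, as did other scalings, filters and libraries left out.

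The members and all lists were chosen with earlier results of these data known. Named genes are the 10 members, Tshz1, up to 4 genes of smallest p (and any called) from each partner list, and the gene most alike to each member; others are said to be chosen after their values were seen. Older symbols were used for Grk2 and Grk3. Protein sequences of the members were not used here.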

Additional observations from a re-analysis of the deposited data

Results flagged for a closer look

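Cxcr4 stood at 30.4 CPM in the knockout NY library, while the other 3 knockout libraries lay between 13.3 and 14.8 CPM, and it was picked out because 1 library lay far from the rest of its genotype. The control NY library, at 29.8 CPM, was also the highest of its genotype. The RSEM mean transcript length of Cxcl12 was 2581 bases in the knockout QT library and 1878 to 1899.95 bases in the other 3 knockout libraries, on 45 expected counts there and 14 to 38 in the others. The mean transcript length of Cxcr4 was 1820.78 bases in the knockout NY library and 1821 in the other 3, a gap of under 1 base. In all, 3 of 46 groups of 4 libraries were picked out this way, and chance alone picks out about 1 group in 20.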

How the results depend on the processing

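No member was called under any of the 21 alternatives to the fit, but 9 of these, all with 1 or more libraries left out, called 0 of all genes and so say nothing of stability; the other 12 called 1 to 39 genes. At a threshold of 0.1, 11 genes and 0 members were called, and the number of partner genes called stayed at 0 under the 10 alternatives run for it. Over 210 refitted member values, 195 kept their direction and 15 turned. Reln, Cxcr4, Cxcl12, Ackr3, Dcx and Pafah1b1 kept theirs throughout, with ranges on leaving out 1 library of -0.99 to -0.11, 0.03 to 1.10, 0.36 to 1.123, -0.76 to -0.20, 0.0085 to 0.29 and 0.21 to 0.43 in that order. Vldlr turned to -0.036 with log2(TPM + 1), -0.040 with log2(TPM + 0.1) and -0.040 without both QT libraries. Lrp8 turned to -0.0067 without composition factors, -0.11 without both NX libraries and -0.19 without control NX and knockout QT. Leaving out 1 library gave ranges of -0.24 to 0.094 for Dab1, -0.20 to 0.27 for Vldlr, -0.093 to 0.17 for Lrp8 and -0.22 to 0.0071 for Dclk1. The cause was not tested.

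When prefixes entered edgeR as a replicate block, 0 members and 0 partner genes were called, against 28 of all genes, and the log2 fold change was 0.57 for Cxcr4 (unadjusted p = 0.0725 in edgeR) and 0.36 for Pafah1b1 (0.0529). Deviations from the genotype means correlated between libraries of the same prefix at 0.385 (NX), 0.303 (NY), 0.0658 (QT) and 0.450 (RM) across genes. Of the 4 prefixes, 3 correlated best with their own prefix. The main fit did not take prefixes as pairs, because the labels do not give their meaning and QT correlated weakly. Its intervals and p-values, and the permutation tests, therefore count differences between prefixes as spread. There the unadjusted p of edgeR was 0.432 for Cxcr4 and 0.131 for Pafah1b1. Cxcl12 rests on the fewest counts, 1 to 49 a library, and these did not follow library depth: control NX, the deepest, had 1.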
